A study of Bos taurus with 32 samples.

Results

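The genes described here are those that hypothalamus and pituitary had in common against testicle and adrenal in Holstein bull calves. Of 27607 Ensembl gene IDs counted, 10580 had a mean level of at least 5 CPM (counts scaled to a fixed library total) in both hypothalamus and pituitary, with the means of those tissues within 8-fold of each other. Each of these was given the ratio of its smaller mean in hypothalamus and pituitary to its larger mean in testicle and adrenal, with 0.5 CPM added to both, and the 200 genes of highest ratio were taken. The genes were thus chosen by their mean levels in the 4 tissues, which are given as a description with no test. Embryo origin was not used in the choice and was tested. Since the limit of 5 CPM was on the mean over both origins, 9 of the 200 genes met it in hypothalamus, and 4 in pituitary, through the calves of 1 origin only, and for these a difference by origin was favoured by the choice.

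The hypothalamus and the pituitary are joined by nerve fibres and by portal blood vessels. Hypothalamic neurons release peptides that set the secretion of the hormone cells of the anterior lobe, and other hypothalamic neurons send their axons into the neural lobe. Both neurons and hormone cells store peptides in dense-core granules and release them by regulated exocytosis, so that many genes of peptide processing, granules, excitable membranes and release are known to be used by both. The count table and the reference table used here do not pair these IDs with gene symbols, and 0 IDs could be matched. The genes are therefore described by ID or by rank under the ratio, without names or functions, and the tissue labels were not checked against marker genes.

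Poly(A)-selected RNA was sequenced in bulk from 4 tissues of 8 male calves, 1 library per tissue and calf, which makes 32 libraries. The IVP calves (3208, 3209, 5833 and 5841) came from embryos produced in vitro. The MOET calves (3213, 3217, 3218 and 5932), which the labels call controls, came from embryos conceived in the animal after ovarian superstimulation and artificial insemination. Embryos of both kinds were carried by recipient cows. The calves were 98 to 104 days old, apart from MOET calf 3213 at 144 days. The labels do not say which lobe of the pituitary or which part of the hypothalamus was taken. Library totals ran from 17357283 to 23380330 counts, and 3 counts in the smallest library stand for 0.173 CPM.

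As chosen, the 200 genes had a median level of 39.9 CPM in hypothalamus (5.12 to 1304), 34.5 CPM in pituitary (5.01 to 7244), 1.45 CPM in testicle (0.0429 to 30.4) and 2.23 CPM in adrenal (0.00699 to 124), each level being a mean over 8 libraries. In 194 of the 200, every hypothalamus and pituitary library lay above every testicle and adrenal library. The ratio ran from 5.03 to 52.4 with a median of 7.63. It was above 10 for 63 genes and above 20 for 16. Around rank 200 the ratio changed slowly. It was 5.10, 5.09 and 5.03 for ranks 198 to 200 and 5.03, 5.02 and 5.00 for ranks 201 to 203. In bulk RNA, fewer cells of a type and less RNA per cell cannot be told apart.

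The genes leaned to either tissue within the 8-fold limit. The mean was higher in hypothalamus for 128 genes and higher in pituitary for 72, and the log2 ratio of hypothalamus over pituitary ran from -2.96 to 2.99 with a median of 0.30. Taking 2-fold as the limit, 59 genes leaned to hypothalamus, 118 were even and 23 leaned to pituitary. Median levels in the 59 were 126 CPM in hypothalamus and 44.0 CPM in pituitary. In the 118 even genes they were 30.5 and 32.1 CPM in hypothalamus and pituitary, and in the 23 pituitary-leaning genes 12.6 and 42.4 CPM. Outside these tissues, 121 genes were higher in adrenal than in testicle and 79 were higher in testicle, by over 2-fold in 65 and 43 of them.

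**Figure D1:**
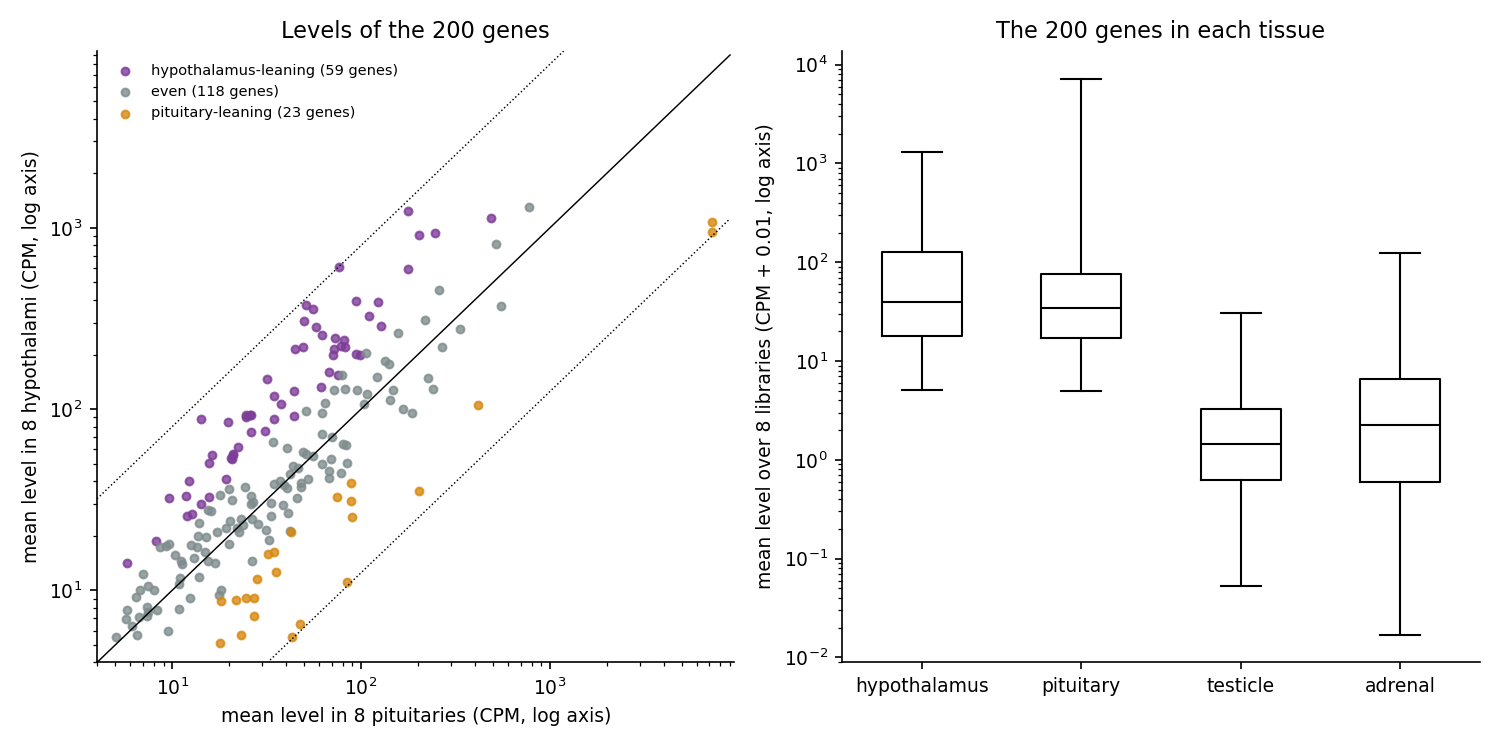
Left, mean level of each of the 200 genes over 8 hypothalami (y axis) and 8 pituitaries (x axis), in CPM on log axes, coloured by the 2-fold leaning, with a line of equality and dotted lines at the 8-fold limit. Right, mean levels of the same genes in the 4 tissues on a log axis with 0.01 CPM added (box, quartiles and median; whiskers, lowest and highest gene): the hypothalamus and pituitary boxes lie above those of testicle and adrenal, as the choice of the genes requires.

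The gene of rank 1, ENSBTAG00000037844, was at nearly the same level in both tissues and close to absent elsewhere. Its mean was 47.5 CPM in hypothalamus, 46.2 CPM in pituitary, 0.391 CPM in testicle and 0.130 CPM in adrenal. Rank 2, ENSBTAG00000003212, had means of 952 CPM in hypothalamus, 7244 CPM in pituitary, 18.3 CPM in testicle and 19.2 CPM in adrenal. It leaned to pituitary close to the 8-fold limit, and unlike the gene of rank 1 it was detected in every testicle and adrenal library. Of the 12 genes of highest ratio, ranks 5, 9, 10, 11 and 12 also leaned to pituitary, ranks 3 and 4 leaned to hypothalamus, and ranks 1, 6, 7 and 8 were even.

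Together the 200 genes took a similar share of the counts in hypothalamus and pituitary and a far smaller one elsewhere. The similarity rested in large part on the genes of ranks 2 and 11. Their means over 8 libraries were 7244 and 7187 CPM in pituitary, a large part of the share there. In hypothalamus they were 952 and 1077 CPM, a small part. By origin these genes went opposite ways in pituitary, with log2 fold changes (IVP over MOET) of -0.55 and 0.71. In hypothalamus the share of the 200 genes was 2.53 ± 0.114% in IVP and 2.37 ± 0.160% in MOET libraries (SD, n = 4 each, as in all means that follow). In pituitary it was 2.82 ± 0.154% in IVP and 2.69 ± 0.182% in MOET libraries. The IVP and MOET ranges overlapped in both tissues, 2.38 to 2.65% and 2.22 to 2.59% in hypothalamus and 2.69 to 3.03% and 2.47 to 2.91% in pituitary. In testicle the share was 0.0491 ± 0.0115% in IVP and 0.0696 ± 0.0113% in MOET libraries, with every IVP library (0.0321 to 0.0575%) below every MOET library (0.0597 to 0.0859%). In adrenal it was 0.115 ± 0.0434% in IVP and 0.117 ± 0.0207% in MOET libraries, and IVP calf 3209 had the highest share of the 8 at 0.178%.

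**Figure D2:**
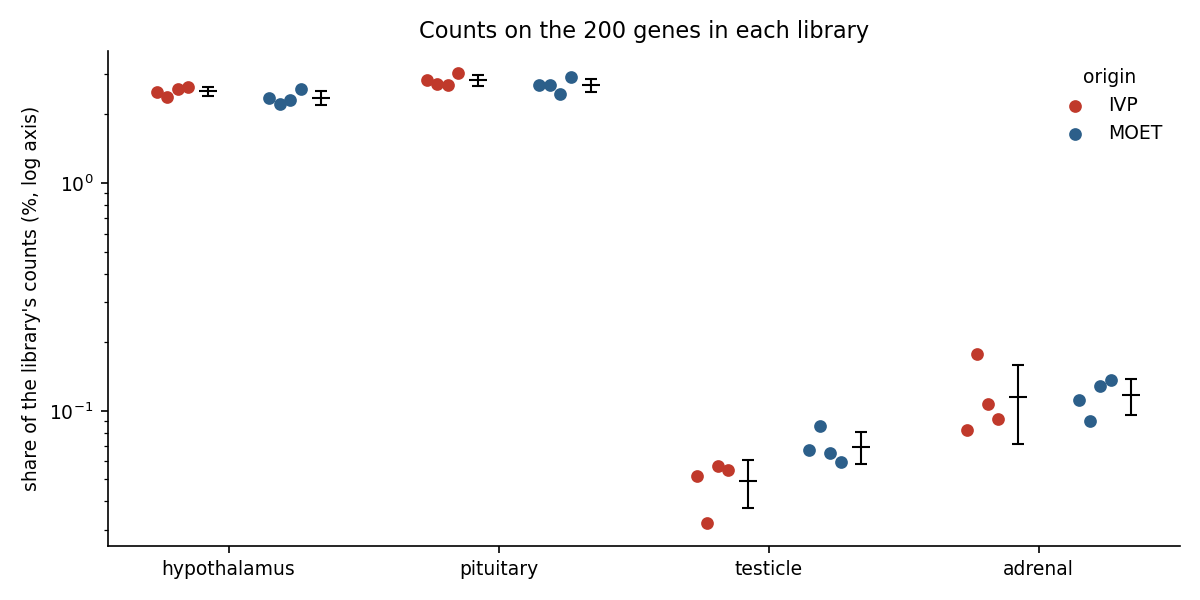
Share of each library's counts on the 200 genes, in percent on a log axis, for IVP (left, red) and MOET calves (right, blue) in each tissue; points are calves and bars the mean ± SD of 4. Hypothalamus and pituitary libraries lie between 2.22 and 3.03%, and testicle and adrenal libraries between 0.0321 and 0.178%.

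The mean over 8 libraries hid uneven genes. Of the 200, 30 were under 5 CPM in at least 1 hypothalamus and 13 in at least 1 pituitary, and 7 were under 5 CPM in at least 4 of the 8 hypothalami. In 2 of these 7, most of the summed hypothalamic level came from IVP calf 5833 (70.9% and 68.6%). The first, ENSBTAG00000004159 (rank 40), was at 13.3, 30.3, 117 and 2.23 CPM in IVP hypothalami of calves 3208, 3209, 5833 and 5841, against 0.987, 0, 0.0575 and 6.18 CPM in MOET hypothalami of calves 3213, 3217, 3218 and 5932. These levels and all that follow are scaled by trimmed mean of M-values (TMM) factors within a tissue and keep that order of calves. The groups overlapped in hypothalamus, and the adjusted p was 0.161 (log2 fold change 4.46, SE 1.42, edgeR quasi-likelihood test). In pituitary the same gene was at 30.8, 25.5, 24.9 and 37.7 CPM in IVP and 26.1, 21.7, 24.8 and 32.6 CPM in MOET calves, an even level throughout. Both genes met the hypothalamic limit through IVP calves only, so their fold changes there are a description. The second, ENSBTAG00000019448 (rank 122), was at 2.41, 11.3, 32.2 and 0.0454 CPM in IVP and 0.376, 0, 0.748 and 1.60 CPM in MOET hypothalami. It was at 40.0 to 57.9 CPM in IVP and 42.2 to 56.8 CPM in MOET pituitaries.

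Genes enriched in pituitary also varied among the hypothalami. These were 98 genes with at least 5 CPM in pituitary and at least 8 times the level of each other tissue (0.5 CPM added to both). By this definition none can be among the 200, which had to lie within 8-fold. The 98 genes took 24.0 to 38.1% of pituitary counts. In hypothalamus they took 0.0689, 0.170, 0.447 and 0.0611% of counts in IVP calves, against 0.0708, 0.0393, 0.0571 and 0.174% in MOET calves. Their share was highest in IVP calf 5833, where the 2 uneven genes peaked, and next in MOET calf 5932 and IVP calf 3209. Over the 23 pituitary-leaning genes, the mean log2(CPM + 0.5) in hypothalamus was 4.13, 4.39, 4.78 and 4.29 in IVP calves and 3.92, 3.86, 3.83 and 4.14 in MOET calves, highest in calf 5833. ENSBTAG00000019448 is 1 of these 23, so its own peak in that calf is counted in this mean. It and the genes of ranks 144 and 194 met the hypothalamic limit through IVP calves only, and rank 167 through MOET calves only. For these 4 of the 23 a difference by origin was favoured by the choice. The part of pituitary-enriched RNA in these levels was not tested. In the other direction, 348 hypothalamus-enriched genes took 0.172 to 0.259% of pituitary counts and 7.69 to 9.96% of hypothalamic counts.

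The spread between calves of 1 origin was larger in hypothalamus than in pituitary. Its median over the 200 genes, as an SD of log2(CPM + 0.5), was 0.30 in hypothalamus, against 0.21 for all 12023 genes of at least 5 CPM there. In pituitary it was 0.17, against 0.11 for all 11752 such genes. The spread was larger in hypothalamus for 154 of the 200 genes and larger in pituitary for 46. It exceeded 0.5 in 47 genes in hypothalamus (23.5%, against 8.3% of all such genes). In pituitary it did so in 10 (5%, against 1.16%). Only ENSBTAG00000019798 among the 200 exceeded 1 in pituitary (1.06).

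In hypothalamus no shared gene was called between IVP and MOET calves. With edgeR's quasi-likelihood test and Benjamini-Hochberg adjustment over all 16066 genes tested, 0 of the 200 passed an adjusted p of 0.05, where 0.0560% of all genes did, 9 in number. At an unadjusted p under 0.05 there were 48 of the 200, 28 with higher and 20 with lower levels in IVP calves, which is the same share as in all genes (24.0%). The DESeq2 Wald test called 14 (8 higher, 6 lower) and 1238 over all genes. The count was 0 with each calf left out in turn. The median log2 fold change was 0.09 over the 200 genes and 0.03 over all genes. The groups did not overlap in 6 genes that were higher in IVP hypothalami, where 4.93% of all genes were so, and in 4 that were lower, where 5.06% were so. Over all genes 53.0% had a positive fold change, and over the 200 genes 59.5%. By leaning, 25 of 59 hypothalamus-leaning, 76 of 118 even and 18 of 23 pituitary-leaning genes had a positive one. Their medians were -0.07, 0.14 and 0.35. The shares of pituitary-enriched counts given above stand beside the last of these, and their part in it was not tested. Of the 200 genes, 7 met the hypothalamic limit through IVP calves only, which favoured a positive fold change, and 2 through MOET calves only. All 9 are counted in the numbers above. Of the pituitary-leaning genes, ranks 122, 144 and 194 belong to the 7 and rank 167 to the 2.

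The smallest p in hypothalamus belonged to the gene of rank 161. It was at 49.6, 49.1, 49.5 and 54.1 CPM in IVP calves and 35.4, 31.9, 30.7 and 44.0 CPM in MOET calves, so that every IVP calf lay above every MOET calf. The log2 fold change was 0.51 (SE 0.12) and the adjusted p 0.139 in edgeR, over the threshold, and 0.00878 in DESeq2. In pituitary the order was not kept, with means of 38.2 ± 6.53 CPM in IVP and 44.9 ± 4.50 CPM in MOET calves (log2 fold change -0.23, SE 0.12, adjusted p 0.191 in edgeR). In adrenal the gene was called as lower in IVP calves (log2 fold change -0.85, SE 0.24, adjusted p 0.0256 in edgeR). That call was lost in 6 of 12 alternatives. Its testicle fold change was -0.86 (SE 0.23) and was not called (adjusted p 0.311 in edgeR).

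In pituitary 34 of the 200 genes changed, 19 that rose in IVP calves and 15 that fell. Over all 15807 genes tested, 15.3% were called, 7.51% that rose and 7.78% that fell, and the shared genes, at 9.50% and 7.50%, were close to these. Of the 34, the genes of ranks 29 and 94 met the pituitary limit through 1 origin only, and the other 32 were 18 that rose and 14 that fell. The called changes had a median size of 0.41 on the log2 scale, against 0.33 over all genes called. By over 2-fold, 1 gene in each direction changed, against 89 that rose and 98 that fell of the 2417 called over all genes. By leaning, 9 of 59 hypothalamus-leaning genes were called (2 rose, 7 fell), 20 of 118 even genes (14 rose, 6 fell) and 5 of 23 pituitary-leaning genes (3 rose, 2 fell). The median fold change was 0.02 over the 200 and 0.0042 over all genes. Groups did not overlap in 22 genes that were higher in IVP calves, against 11.5% of all genes, and in 17 that were lower, against 10.9%.

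This count depended on single calves and on the use of age as a covariate. Leaving out MOET calf 3213, the oldest, left 5 calls (2 rose, 3 fell), and without IVP calves 3208, 3209 or 5833 there were 13, 20 or 18. With age as a covariate 2 remained of the 34. Since calf 3213 alone was older, its age and its origin group cannot be fully told apart. It was also the heaviest calf at collection, so age cannot be told apart from weight or from that animal. Without the other calves the count was 24 to 41, and DESeq2 called 40, among them all 34. Counts over all genes without calf 3213 and with age are given in the last section. For the other fits they are not given here.

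ENSBTAG00000015485 (rank 75) had the smallest p of the genes that rose. Its pituitary level was 9.23, 7.89, 9.78 and 10.9 CPM in IVP calves, against 5.16, 5.21, 4.68 and 5.59 CPM in MOET calves. All IVP calves lay above all MOET calves (log2 fold change 0.87, SE 0.12, adjusted p 0.00572 in edgeR), and the call held in all 12 alternative fits, with adjusted p of 5.12e-07 to 0.0401. In hypothalamus it was at 4.60, 8.46, 7.39 and 18.2 CPM in IVP and 5.69, 6.69, 5.64 and 6.79 CPM in MOET calves, and these groups overlapped (adjusted p 0.282 in edgeR).

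The second of the genes that rose in pituitary, ENSBTAG00000003036 (rank 159), was at 52.9, 46.0, 46.9 and 58.2 CPM in IVP and 34.9, 39.9, 31.1 and 34.0 CPM in MOET calves. The groups did not overlap (log2 fold change 0.54, SE 0.09, adjusted p 0.0103 in edgeR). With age as a covariate the adjusted p was 0.0507.

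Among the genes that fell in pituitary, ENSBTAG00000024814 (rank 58) had the smallest p. It was at 34.4, 34.9, 37.6 and 34.1 CPM in IVP calves, against 46.4, 42.8, 47.7 and 48.3 CPM in MOET calves, with no overlap and little spread within either group. The log2 fold change was -0.39 (SE 0.06, adjusted p 0.00680 in edgeR), and it was called in all 12 alternatives. Its hypothalamic means were 57.9 ± 11.5 CPM in IVP and 64.4 ± 4.91 CPM in MOET calves, a difference that was not called (adjusted p 0.469 in edgeR).

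ENSBTAG00000019798 (rank 29) had the largest fold change of the 34, and it is among the 200 only through its MOET calves: its pituitary mean on column totals was 0.953 CPM in IVP and 24.3 CPM in MOET calves, the first under the limit of 5 CPM. A difference by origin was thus favoured by the choice, and its fold changes are given as a description that supports nothing further. In pituitary it was at 0.403, 1.33, 1.03 and 0.948 CPM in IVP calves, against 20.3, 16.4, 4.18 and 51.6 CPM in MOET calves. IVP pituitaries were low without exception, and the MOET pituitaries were higher and differed among themselves by over 10-fold. The log2 fold change was -4.64 (SE 0.82, adjusted p 0.0142 in edgeR). Its adjusted p was 0.0572 without MOET calf 3213 and 0.0636 with age as a covariate. In hypothalamus the same gene was at 10.6, 21.3, 11.1 and 21.2 CPM in IVP and 18.8, 19.9, 22.3 and 17.4 CPM in MOET calves. There the groups overlapped (log2 fold change -0.29, SE 0.25, adjusted p 0.450 in edgeR). Its levels in testicle were at most 0.708 CPM and in adrenal at most 0.312 CPM.

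The effect of origin in hypothalamus was set against that in pituitary in 1 fit of 16 libraries. This edgeR test of the difference called 1 of the 200 genes, where 0.312% of 16990 genes were called. It was ENSBTAG00000019798, whose pituitary difference the choice of the genes favoured, and whose log2 fold change was higher by 4.33 in hypothalamus than in pituitary (SE 0.80, adjusted p 0.0466). With the calf as a block, which the design warrants since both tissues came from the same animals, the difference was 3.91 with an adjusted p of 0.106, and 0 of the 200 genes were called. The call was also lost without calf 3208, 3209, 3213, 3217, 5833 or 5841, one at a time (adjusted p 0.0581 to 0.273). For the other genes, a difference in the effect of origin between these tissues was not detected. At an unadjusted p under 0.05 there were 41 of the 200 (20.5%, against 16.2% of all genes), and DESeq2 called 7, with 648 over all genes.

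**Figure D3:**
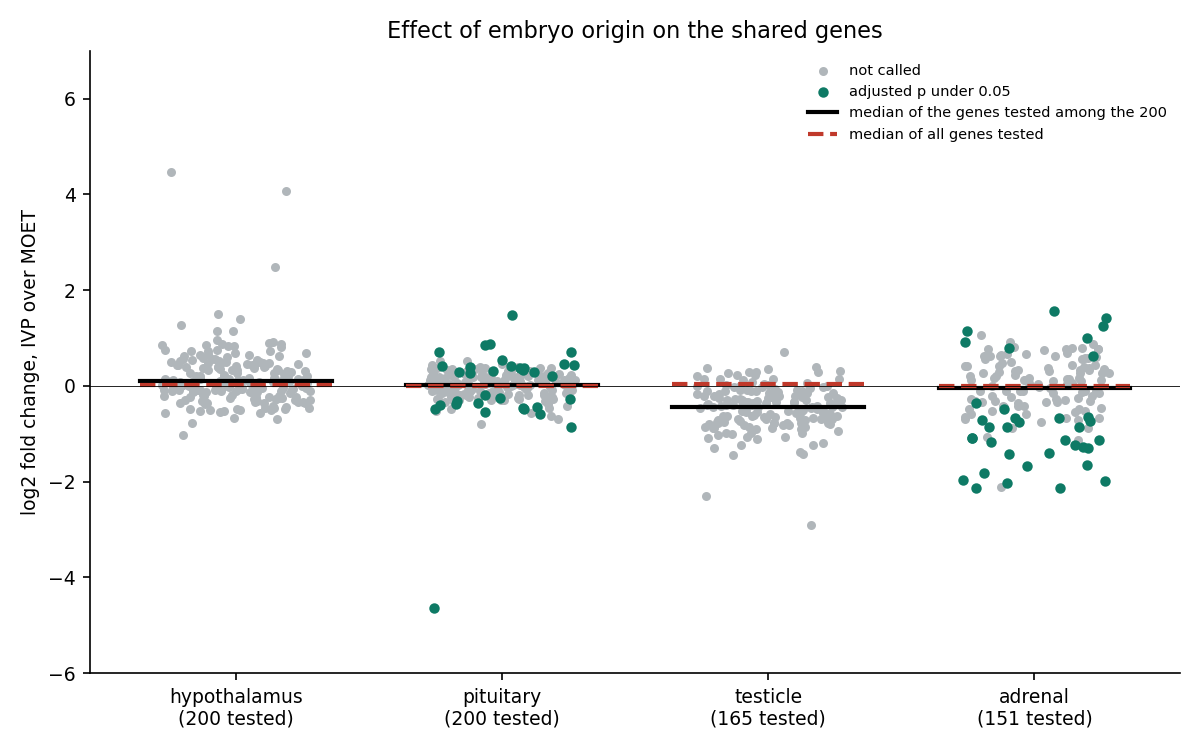
Log2 fold change, IVP over MOET, of the shared genes tested in each tissue (y axis; points are genes, green where the adjusted p was under 0.05), with the median of those genes (black line) and of all genes tested (red dashed line). Called genes appear in pituitary (34) and adrenal (37), and in testicle the black line lies at -0.44, below the red line at 0.03.

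Hypothalamus and pituitary were also averaged within each calf, a test that a change in either tissue alone can pass. With limma on the mean log2 CPM per calf, 6 of the 200 genes were called, 1 that rose and 5 that fell, where 4.17% of 16990 genes were called, 1.88% that rose and 2.30% that fell. The gene that rose, ENSBTAG00000050392 (rank 158), was at 150, 114, 153 and 152 CPM in IVP hypothalami and 110, 95.9, 100 and 139 CPM in MOET hypothalami. In pituitary it was at 274, 263, 273 and 270 CPM in IVP and 208, 229, 217 and 181 CPM in MOET calves. The groups overlapped in hypothalamus and not in pituitary, and the mean log2 fold change was 0.37 (SE 0.06, adjusted p 0.0319 in limma). Of the 5 that fell, ENSBTAG00000019798 had the largest change (-2.24, SE 0.36, adjusted p 0.0298 in limma), with the pituitary and hypothalamus fold changes of -4.64 and -0.29 given above behind it, and is subject to the same choice. The genes of ranks 73, 145, 55 and 166 fell by 0.31, 0.39, 0.23 and 0.20 on the log2 scale.

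Each of these 6 calls was lost in at least 6 of the alternatives tried. The count was 0 without calf 3208, 3213, 3217, 5833 or 5841 and 0 with age as a covariate. It was 1 without calf 3218, 27 without calf 3209 and 37 without calf 5932. All-gene counts of these fits are not given here, so such swings are not shown to be particular to the shared genes.

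Testicle and adrenal hold these genes at low levels, so the tests there cover fewer of them. In testicle 165 of the 200 had enough counts to be tested and 35 did not. In adrenal these numbers were 151 and 49. Of the 200 genes, 85 had a mean under 1 CPM in testicle and 66 in adrenal. The count filter can keep such a gene through the calves of 1 origin only, and for these a difference by origin was favoured.

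In testicle no shared gene was called, but lower levels in IVP calves were frequent. Over all 200 genes, 172 had a lower mean in IVP testicles and 28 a higher one, and the median difference of the log2(mean CPM + 0.5) was -0.31. Among the 165 tested, 0 were called, where 0.00612% of 16352 genes (1 gene) were. At an unadjusted p under 0.05 there were 51 (30.9%), all lower in IVP calves, against 9.04% of all genes, 3.18% higher and 5.86% lower. DESeq2 called 11, all lower, and 260 over all genes. The median log2 fold change was -0.44 over the 165 and 0.03 over all genes tested. It was positive in 14.55% of the 165 and 56.56% of all genes. All 4 IVP testicles lay below all 4 MOET testicles for 37 of the 165, against 4.29% of all genes. How many of the 51 and the 37 passed the count filter through MOET calves only was not counted. The hypothalamus-leaning genes had a median of -0.65 (44 of 47 negative), the even ones -0.35 (83 of 101) and the pituitary-leaning ones -0.42 (14 of 17).

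Library by library, the mean log2(CPM + 0.5) of the 200 genes in testicle was 0.94, 0.60, 1.09 and 0.999 in IVP calves, against 1.22, 1.43, 1.19 and 1.15 in MOET calves. IVP calf 3209 was lowest and MOET calf 3217 highest, and the groups did not overlap. The hypothalamus-enriched genes, none of which can by definition be among the 200, took 0.146, 0.155, 0.161 and 0.154% of testicle counts in IVP and 0.178, 0.220, 0.162 and 0.166% in MOET calves. Testicle-enriched genes (172) took 7.27% of the counts in IVP calf 3209 and 4.87% in MOET calf 3217, with 5.43 to 6.73% in the other 6. The part of these shares in the levels of the 200 genes was not tested.

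**Figure D4:**
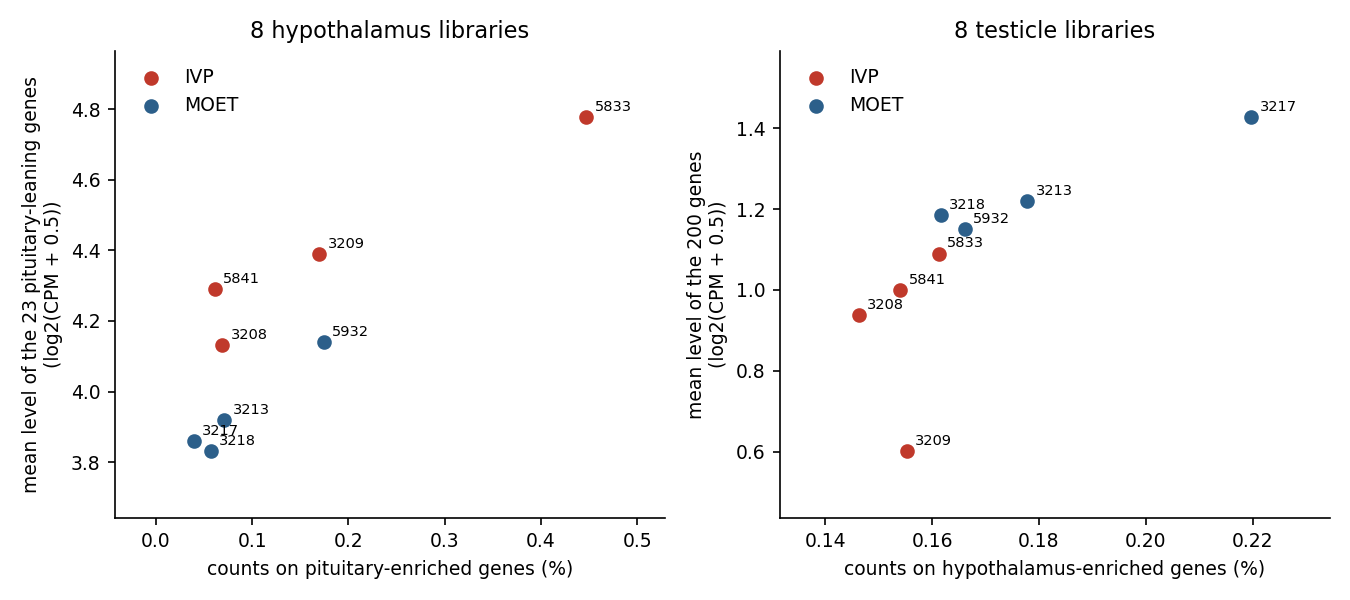
Each point is a library, labelled by calf (red, IVP; blue, MOET). Left, hypothalami: percent of counts on pituitary-enriched genes (x axis) and mean log2(CPM + 0.5) of the 23 pituitary-leaning genes (y axis), both highest in IVP calf 5833 (0.447% and 4.78). ENSBTAG00000019448, 1 of the 23, itself peaked in that calf. Right, testicles: percent of counts on hypothalamus-enriched genes (x axis) and mean log2(CPM + 0.5) of the 200 genes (y axis), both highest in MOET calf 3217 (0.220% and 1.43).

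In adrenal 37 of the 151 genes tested changed, 8 that rose and 29 that fell in IVP calves. Over all 15437 genes tested, 39.3% were called, 20.8% that rose and 18.5% that fell. Among the shared genes tested, 5.30% rose and 19.2% fell. The called changes had a median size of 1.14 on the log2 scale, against 0.55 over all genes called. By over 2-fold, 4 rose and 18 fell, against 262 and 639 of the 6068 called over all genes. The median SE was 0.29 over the 151 and 0.14 over all genes tested. Its part in the sizes of the called changes was not tested. By leaning, 27 of 91 even genes (5 rose, 22 fell), 6 of 49 hypothalamus-leaning genes (1 rose, 5 fell) and 4 of 11 pituitary-leaning genes (2 rose, 2 fell) were called. Over all 200 genes, 105 had a higher and 95 a lower mean in IVP adrenals, with a median difference of 0.04. Among the 151 tested, 49.01% had a positive fold change, against 50.04% of all genes tested. The median log2 fold change was -0.04 in those 151 and 0.0006 over all genes tested. Groups did not overlap in 9 of the 151 that were higher in IVP calves (20.3% of all genes) and in 23 that were lower (19.0%).

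The adrenal count was 19, 20, 20 and 24 without calves 3218, 5833, 5932 and 3213, and 23 with age as a covariate, and falls outnumbered rises in each of these. Without calf 3208 it was 54, with 25 that rose and 29 that fell. In the DESeq2 test 17 rose and 29 fell. IVP calf 3209 had a mean log2 level of the 200 genes above those of the other IVP calves (1.89 against 1.21 to 1.31). Without that calf 7 rose and 40 fell. Counts over all genes in these fits are not given here, so a move of the shared genes apart from the rest is not shown.

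The falls in adrenal were led by ENSBTAG00000007882 (rank 103). It was at 2.55, 1.56, 1.38 and 1.60 CPM in IVP calves, against 7.12, 4.98, 8.22 and 8.71 CPM in MOET calves. The groups stood well apart (log2 fold change -2.03, SE 0.25, adjusted p 0.00669 in edgeR), and the call held in all 12 alternatives. ENSBTAG00000005560 (rank 163) was at 1.92, 2.25, 1.71 and 1.93 CPM in IVP and 6.14, 4.04, 7.15 and 7.41 CPM in MOET adrenals. It too was called throughout (log2 fold change -1.67, SE 0.21, adjusted p 0.00772 in edgeR).

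Of the genes that rose in adrenal, ENSBTAG00000045896 (rank 134) had the smallest p. It was at 5.11, 7.44, 5.24 and 5.12 CPM in IVP and 3.29, 2.57, 3.14 and 4.19 CPM in MOET calves, with no overlap (log2 fold change 0.79, SE 0.19, adjusted p 0.0162 in edgeR). Without MOET calf 3218 the adjusted p was 0.0535. The next, ENSBTAG00000016801 (rank 51), was at 2.23, 8.12, 4.25 and 2.81 CPM in IVP and 1.51, 1.36, 2.13 and 1.49 CPM in MOET calves. Its log2 fold change was 1.41 (SE 0.40, adjusted p 0.0252 in edgeR), IVP calf 3209 being the highest. Without that calf the fold change was 0.93, and the call was lost without calf 3213, 3217, 3218, 5833 or 5932 and with age as a covariate (adjusted p 0.0530 to 0.0689).

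**Figure D5:**
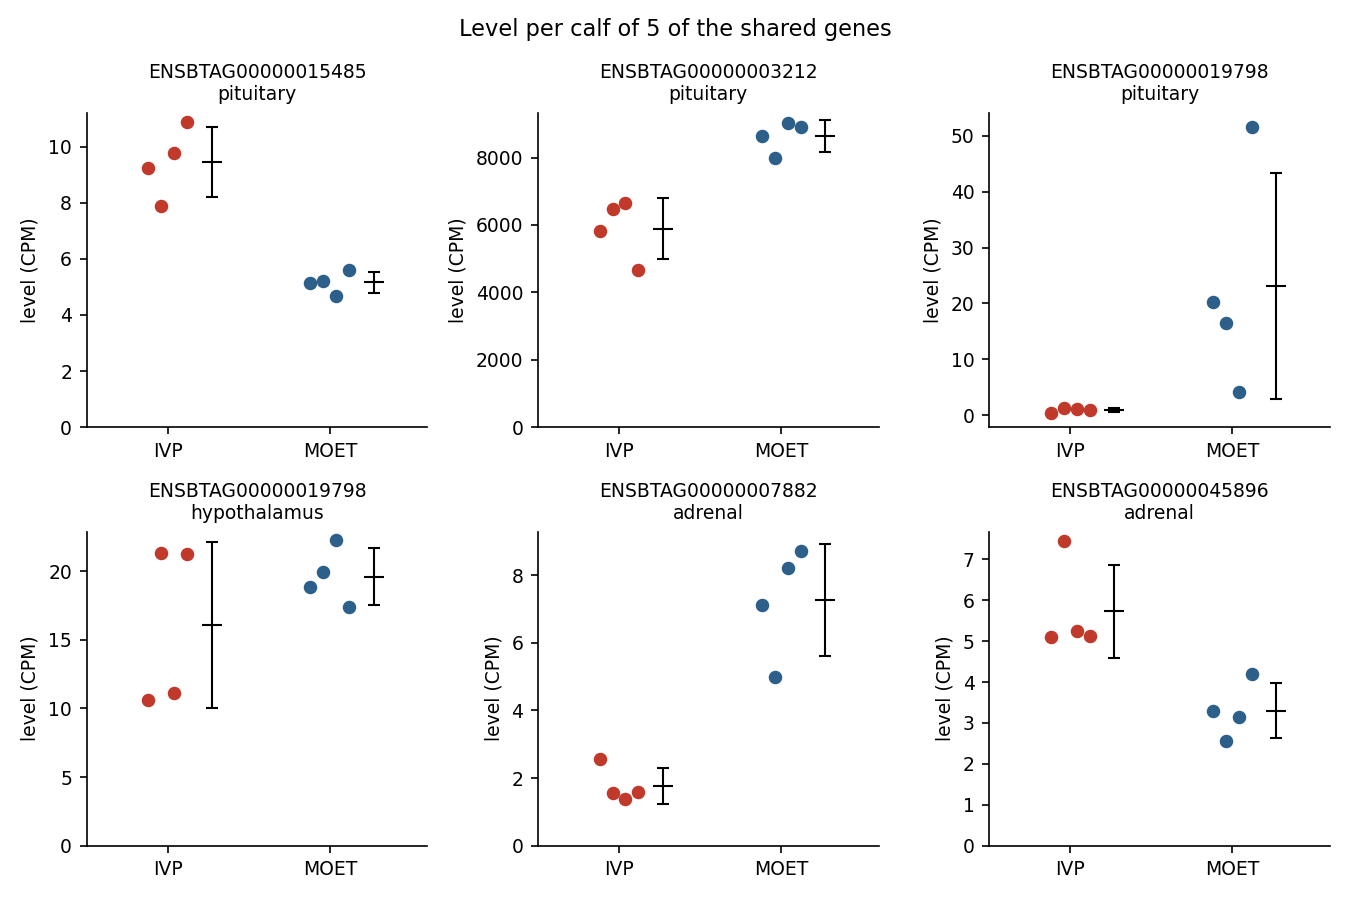
Level in each calf, in CPM, of 5 of the shared genes, 1 of them in both tissues, with IVP (left, red) and MOET calves (right, blue); points are calves and bars the mean ± SD of 4. The groups do not overlap except for ENSBTAG00000019798 in hypothalamus, where IVP calves lie at 10.6 to 21.3 CPM and MOET calves at 17.4 to 22.3 CPM.

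Of the 151 genes tested in both pituitary and adrenal, 9 were called in both, 32.1% of the 28 pituitary calls and 24.3% of the 37 adrenal calls. Over all 14573 genes tested in both, 988 were, 43.3% of the pituitary calls and 16.8% of the adrenal calls. Of the 9, 5 rose in pituitary and fell in adrenal, 3 fell in pituitary and rose in adrenal, and 1 went up in each tissue, with 0 genes lower in each. Opposite directions were also the more frequent over all genes, in 831 of the 988 (84.1%). The difference in effect between pituitary and adrenal was not tested. ENSBTAG00000003212, rank 2 of the shared genes, was among the 9. In pituitary it was at 5819, 6461, 6642 and 4660 CPM in IVP calves, against 8627, 7981, 9035 and 8895 CPM in MOET calves, with no overlap. The log2 fold change was -0.55 (SE 0.12, adjusted p 0.0168 in edgeR). In adrenal it was at 14.95, 44.2, 25.4 and 18.1 CPM in IVP and 13.1, 12.2, 14.6 and 14.6 CPM in MOET calves, so that IVP calves were higher without overlap (log2 fold change 0.91, SE 0.31, adjusted p 0.0430 in edgeR). Without IVP calf 3209 that fold change was 0.52. The adrenal call was lost in 7 of 12 alternatives, among them without calf 3213, 3217, 3218, 5833 or 5932. The pituitary call was lost in 3 of 12, among them without calf 3208 or 3213. In hypothalamus its means were 849 ± 172 CPM in IVP and 1076 ± 332 CPM in MOET calves (adjusted p 0.334 in edgeR).

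The lead fall of the adrenal, ENSBTAG00000007882, had the opposite order in pituitary. There it was at 49.5, 64.6, 61.9 and 43.7 CPM in IVP and 41.3, 43.5, 38.3 and 42.4 CPM in MOET calves (log2 fold change 0.41, SE 0.12, adjusted p 0.0446 in edgeR). That pituitary call was lost in 9 of 12 alternatives, among them leaving out any 1 calf other than 5841. The lead fall of the pituitary, ENSBTAG00000024814, was at 2.34, 7.50, 4.30 and 3.80 CPM in IVP and 2.16, 1.52, 2.33 and 2.94 CPM in MOET adrenals, where the groups overlapped. Its adrenal log2 fold change was 0.99 (SE 0.35, adjusted p 0.0498 in edgeR) and 0.63 without IVP calf 3209, and 10 of 12 alternatives took that call away, 7 of them by leaving out 1 calf other than 3208.

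The scaling within a tissue shifts all of these fold changes by the same amount. On column totals in place of TMM-scaled totals, every log2 fold change would be higher by 0.16 in hypothalamus and 0.06 in pituitary, and lower by 0.12 in testicle and 0.19 in adrenal. The distance between the shared genes and all genes is not changed by it. All values given here as fold changes are relative to TMM scaling.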

How the data were processed

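The authors deposited unnormalised gene counts for 27607 Ensembl IDs in 32 libraries. The labels' protocols give an RNA integrity number above 7, poly(A) selection, unstranded libraries, paired reads of 100 bases and filtering by SOAPnuke. The submitters' processing notes name STAR 2.7, HTSeq and the bosTau9 build. Annotation release and counting settings were not given in the sources used here. Without strand, reads of a gene and of one that overlaps it on the opposite strand are not separable.

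The members, the gene groups and the tests were chosen with earlier results of these data known. Tissue levels and shares of counts are CPM on column totals. Values compared by origin are CPM on TMM-scaled totals within a tissue. In each tissue, genes were kept with filterByExpr (minimum count 10, minimum total 15) and given edgeR's robust quasi-likelihood test, with Benjamini-Hochberg adjustment at 0.05 over every gene kept. An SE is the absolute log2 fold change divided by the root of F. The difference between hypothalamus and pituitary used both tissues in 1 edgeR fit, and the mean per calf used limma with trend on log2 CPM (prior count 2). Versions were edgeR 4.0.16, DESeq2 1.42.0 and limma 3.58.1 under R 4.3.3, with matplotlib 3.10.9 under Python 3.11.15 for figures. The scripts were tested on simulated data.

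Genes were to be named by smallest p. Because IDs could not be paired with symbols, at most 2 IDs per direction and comparison are given, and the planned gene lists and cell type markers were not used. ENSBTAG00000019798, ENSBTAG00000004159, ENSBTAG00000019448 and the tissue-enriched groups were singled out after their values were seen.

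A calf has the same animal number in the labels of all its tissues, so the numbers pair hypothalamus with pituitary and not IVP with MOET. Over 10807 genes, the correlation of a calf's deviations from its group means in these tissues ran from -0.255 to 0.575, above 0.1 in 5 of 8 calves. Among 48 pairs of libraries of 1 group, 0 were identical, and the chi-square per degree of freedom was 5.21 to 203. The fits were repeated with size factors or the Wald test of DESeq2, without the filter, with another prior count, with age or calf terms, and with each calf removed.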

Additional observations from a re-analysis of the deposited data

Results flagged for a closer look

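The IVP effect on ENSBTAG00000019798 was 4.33 higher in hypothalamus than in pituitary on the log2 scale, by the test of the difference itself without the calf as a block. This gene met the pituitary limit of 5 CPM through MOET calves only, so the choice of the genes favoured such a difference. Its values and the fits in which that call is lost are given above.

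In groups of 4 calves, a calf was marked when its gap to the nearest other, divided by the group's range, exceeded Dixon's 95% critical value. Of 146 groups looked at, 8 had such a calf, and chance marks about 5% of groups.

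In IVP hypothalami, ENSBTAG00000003036 was at 37.8 CPM in calf 3209, against 55.8 to 56.1 CPM in the other IVP calves. ENSBTAG00000050392 was also low in hypothalamus of IVP calf 3209, at 114 CPM against 150 to 153 CPM in the others. The gene of rank 161 was at 54.1 CPM in the hypothalamus of IVP calf 5841 and 49.1 to 49.6 CPM in the other IVP calves. In MOET hypothalami, ENSBTAG00000004159 was at 6.18 CPM in calf 5932 and at most 0.987 CPM in the others.

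ENSBTAG00000019448 was at 57.9 CPM in the pituitary of IVP calf 5841 and 40.0 to 41.9 CPM in the other IVP pituitaries. In MOET testicles, the gene of rank 161 was at 2.57 CPM in calf 3217 and 2.29 to 2.33 CPM in the others. In adrenal, IVP calf 3209 had a mean log2 level of the 200 genes of 1.89, against 1.21 to 1.31 in the other IVP calves, and ENSBTAG00000045896 was at 7.44 CPM there, against 5.11 to 5.24 CPM.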

How the results depend on the processing

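Counts of called genes depended on the calves and on the age covariate more than on scaling. With DESeq2 size factors every count stayed within 1.5 times, and with 188 to 196 of the 200 genes chosen again when a calf was left out, 194 on TMM-scaled totals and 172 with an added constant of 2, the choice of genes moved little. The DESeq2 Wald test called 14 genes in hypothalamus, 11 in testicle and 7 for the difference between hypothalamus and pituitary, against 0, 0 and 1 in edgeR, and over all genes 1238, 260 and 648, against 9, 1 and 53. With age as a covariate the count was 2 in pituitary (34 without), 23 in adrenal (37) and 0 for the mean per calf (6), which was 2 with no low-count filter. With the calf as a replicate block, 0 genes were called for the difference between hypothalamus and pituitary. Over the fits without 1 calf, counts ran from 5 to 41 in pituitary, 19 to 54 in adrenal, 0 to 2 for the difference and 0 to 37 for the mean per calf, and stayed 0 in hypothalamus and testicle. Over all genes tested, the pituitary count of 2417 was 378 without calf 3213 and 266 with age. For the other fits without 1 calf or with age, all-gene counts are not given here. No gene given by ID changed direction under any alternative in which it was called at first. The causes were not tested. At the low levels of testicle and adrenal, 35 and 49 of the 200 genes had too few counts to be tested.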
